A study of Mus musculus with 18 samples.

Results

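The genes described here were 10 markers of cancer-associated fibroblasts (CAFs) and genes of platelet-derived growth factor (PDGF) signalling: the ligands Pdgfa and Pdgfc, the receptors Pdgfra and Pdgfrb, and Thy1, Fap, Pdpn, S100a4, Dpt and Cd34. They were chosen by symbol, and all 10 were found among the 24455 symbols of the 168FARN table and the 24532 of the LLC1 table. RNA had been sequenced from GFP-tagged mouse cancer cells after about a week as spheroids, to ask how the cancer cells changed beside fibroblasts that carry or lack the transcription factor Prrx1. Cells of the breast cancer line 168FARN were grown alone, with control CAFs from MMTV-PyMT mouse breast tumours (WT coculture, guide sgNS), or with such CAFs after CRISPR/Cas9 deletion of Prrx1 (sgPrrx1 coculture). Cells of the lung cancer line LLC1 were grown alone or with sgNS or sgPrrx1 fibroblasts from mouse skin wounds at day 10, again as WT and sgPrrx1 coculture. There were 3 fibroblasts per cancer cell, and each line had 3 groups of 3 libraries, 18 libraries in all. All groups of a line shared the same GFP-tagged cancer cells, and Prrx1 had been deleted in the fibroblasts only. The GFP-tagged cells were sorted by flow cytometry before RNA extraction, so a fibroblast transcript in a coculture library could be expressed by the cancer cells or carried over from the fibroblasts, and these sources cannot be told apart here. No library of the fibroblasts themselves was used here.

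PDGF ligands are secreted dimers that bind the tyrosine kinase receptors PDGFRα and PDGFRβ and drive growth and migration of mesenchymal cells. In carcinomas the ligands are often made by tumour cells and the receptors by fibroblasts and pericytes, and both receptors, with Thy1, Fap, Pdpn and S100a4, are widely used to recognise CAFs. None of these markers is confined to fibroblasts, and cancer cells with mesenchymal features can express several of them.

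The libraries held 48315037 to 68933002 counts in 168FARN and 66129117 to 103997557 in LLC1. Levels are given in CPM, a library's counts scaled to its effective total within each line's table, so a level in 168FARN set beside one in LLC1 crosses separately scaled tables. The library labelled LLC1 sgPrrx1 replicate 3 stood apart: its scaling factor was 0.883, against 0.996 to 1.028 in the other LLC1 libraries, and the median coefficient of variation of genes with a mean of at least 1000 counts was 23.7% in its group, against 5.95% in LLC1 alone and 4.90% in LLC1 WT coculture. Counts of members, of PDGF pathway genes and of all genes that passed in LLC1 are therefore given with and without it, as are the members' values whose call it changed. The two-sided quasi-likelihood test of edgeR was run over 13540 genes in 168FARN and 12873 in LLC1, and a gene passed at a Benjamini-Hochberg adjusted p under 0.05. Whether the 3 libraries of a group came from separate cultures is not stated, so p-values measure the spread between these libraries only. In such bulk samples fewer cells of a type and less RNA per cell cannot be told apart.

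In cells grown alone, most of the markers were already detected, with no fibroblasts present. Per kilobase of transcript, S100a4, a small calcium-binding protein also called fibroblast-specific protein 1, was the highest member in 168FARN alone at 2193 CPM per kilobase. It was followed by the mucin-like glycoprotein gene Pdpn (podoplanin) at 556 and the sialomucin gene Cd34 at 391 CPM per kilobase. Pdgfa, Pdgfra and Pdgfrb lay well below these at 21.8, 10.5 and 7.94 CPM per kilobase, and Pdgfc was at 0.356. Dpt, Fap and Thy1 were at or near 0. In LLC1 alone the order was different below S100a4, which was again highest at 1170.0 CPM per kilobase. Pdgfa at 19.2 and Pdgfc at 18.8 CPM per kilobase came next and overlapped between libraries, then Pdgfra at 11.9, Dpt at 6.71 and Pdgfrb at 1.03. Pdpn and Cd34 were at 0.373 and 0.119 CPM per kilobase in LLC1 alone, and Thy1 and Fap were at or near 0.

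**Figure D1:**
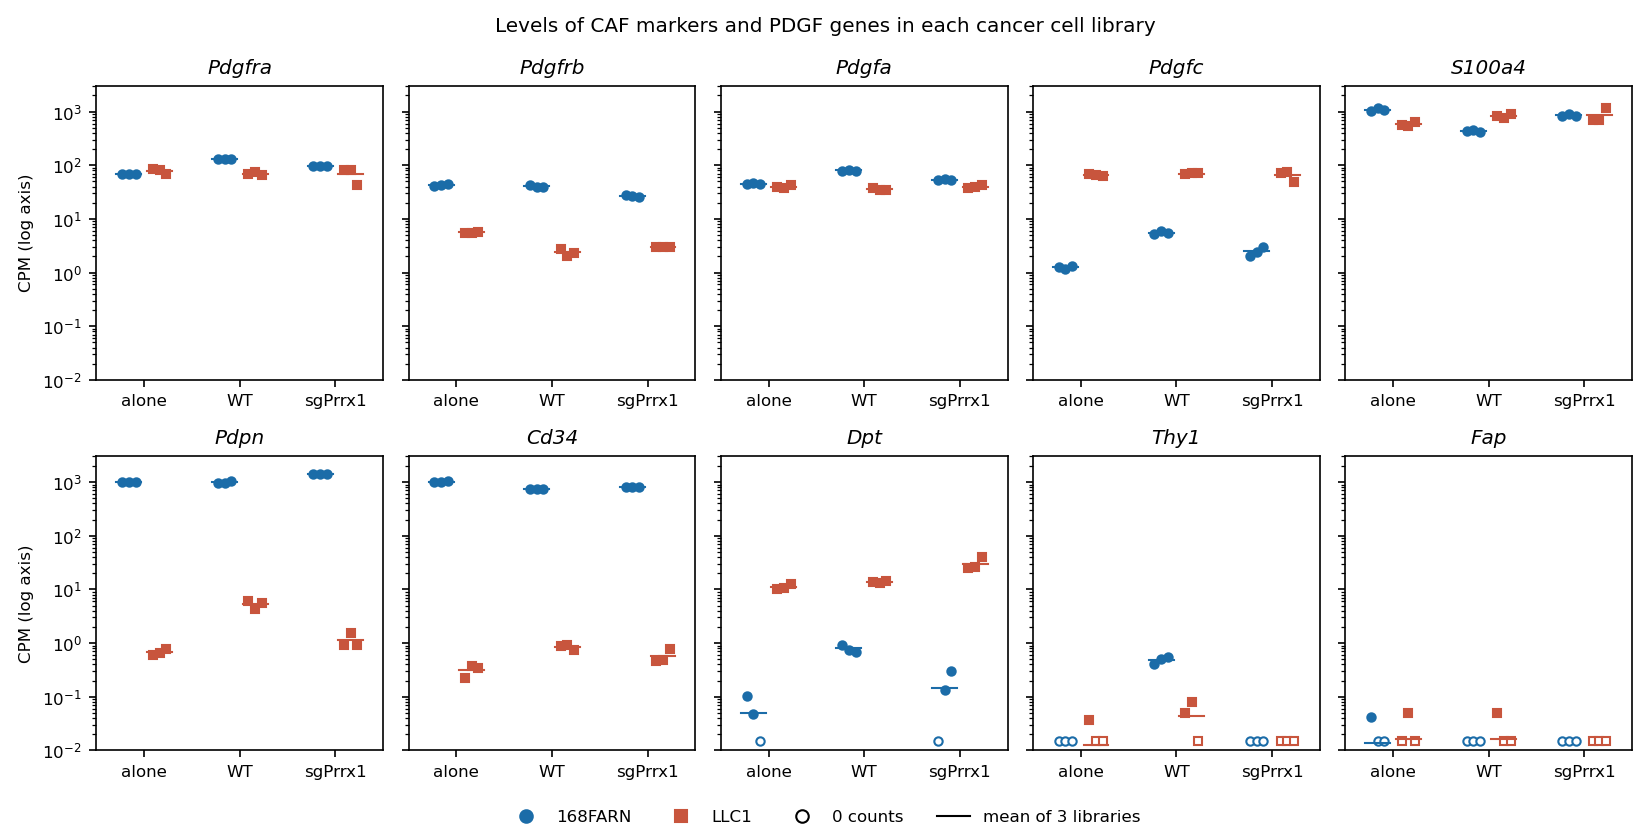
CPM of the 10 genes in each library (points, log axis; open symbols at the foot are libraries with 0 counts) for cells alone, WT coculture and sgPrrx1 coculture, with the mean of 3 libraries as a line; circles are 168FARN and squares LLC1. Pdpn and Cd34 are near 1010.2 and 1024 CPM in 168FARN alone but under 1 CPM in LLC1 alone, and Thy1 leaves 0 in 168FARN WT coculture, where it has 27 to 34 counts.

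The sequences just before the genes' starts are shown for Dpt, Pdpn, Pdgfc, Cd34 and S100a4, the 5 members with the largest difference between the lines in the response to WT fibroblasts among those that passed the test of that difference. Each is the 250 bases before the start listed by RefSeq in build GRCm38.p6, the assembly mm10 is named for, read 5′ to 3′ on the gene's strand. Capitals mark matches, on either strand, to the TATA box (TATAAA), the GC box (GGGCGG), the SMAD box (CAGAC), the AP-1 site (TGANTCA) or the homeobox core (TAATTA). The windows are chr3:81036166-81036415 (plus strand) for Pdgfc, chr3:90603520-90603769 (plus) for S100a4, chr4:143299565-143299814 (minus) for Pdpn, chr1:194938571-194938820 (plus) for Cd34 and chr1:164796413-164796662 (plus) for Dpt.
Pdgfc: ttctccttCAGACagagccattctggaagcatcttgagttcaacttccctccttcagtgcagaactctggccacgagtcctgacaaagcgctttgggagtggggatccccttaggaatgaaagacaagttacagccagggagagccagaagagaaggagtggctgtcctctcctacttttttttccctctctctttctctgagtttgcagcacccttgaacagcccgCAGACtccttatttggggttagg
S100a4: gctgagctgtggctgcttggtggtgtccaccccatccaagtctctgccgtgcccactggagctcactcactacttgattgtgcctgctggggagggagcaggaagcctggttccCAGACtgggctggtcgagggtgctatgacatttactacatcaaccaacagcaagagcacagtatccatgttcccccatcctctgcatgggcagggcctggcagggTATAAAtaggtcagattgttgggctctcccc
Pdpn: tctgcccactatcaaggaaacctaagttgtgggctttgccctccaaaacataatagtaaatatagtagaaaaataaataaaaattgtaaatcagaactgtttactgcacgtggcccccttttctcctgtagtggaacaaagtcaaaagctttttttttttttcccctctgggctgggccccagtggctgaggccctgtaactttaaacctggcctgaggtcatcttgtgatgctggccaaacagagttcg
Cd34: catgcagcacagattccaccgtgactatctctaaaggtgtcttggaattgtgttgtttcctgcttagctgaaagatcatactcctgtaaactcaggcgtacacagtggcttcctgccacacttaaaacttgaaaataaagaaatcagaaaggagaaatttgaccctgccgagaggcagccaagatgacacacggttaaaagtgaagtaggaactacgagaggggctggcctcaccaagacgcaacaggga
Dpt: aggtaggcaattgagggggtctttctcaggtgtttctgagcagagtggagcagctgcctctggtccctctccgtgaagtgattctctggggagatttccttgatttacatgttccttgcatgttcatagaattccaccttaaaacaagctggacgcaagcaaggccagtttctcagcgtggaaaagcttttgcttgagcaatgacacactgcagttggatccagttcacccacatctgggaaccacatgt
S100a4 held the TATA box 31 bases before its start and the SMAD box 136 bases before it, and Pdgfc held the SMAD box at 242 and 23 bases before its start. The windows of Pdpn, Cd34 and Dpt held none of the 5 motifs. Windows were found for 7 of the 10 genes, all but Pdgfrb, Thy1 and Fap, and Pdgfa had an additional window. Of these 8 windows, 1 held the TATA box, 2 the GC box, 3 the SMAD box and none the AP-1 site or the homeobox core. The windows of Pdgfa and Pdgfra precede starts within the gene spans printed below, and so lie inside those spans. The GC box was found only in the windows of Pdgfa, and the window of Pdgfra was among those with the SMAD box. Of 32851 windows of the same length, to which this rule was not applied, 12.4% held the TATA box, 32.7% the GC box, 42.2% the SMAD box, 6.75% the AP-1 site and 4.84% the homeobox core. The G and C content was 50.8% for Pdgfc, 57.2% for S100a4, 43.2% for Pdpn, 46.4% for Cd34 and 48.8% for Dpt, against a median of 52.4% over all windows. A match describes the letters only and says nothing of binding.

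Both PDGF ligands among the members rose when 168FARN cells were grown with WT CAFs and were lower with sgPrrx1 CAFs than with WT CAFs, while neither passed the test in LLC1. Pdgfa (chr5:138976014-139000792 in the same build, as are the positions that follow), which encodes the ligand chain that binds PDGFRα, was at 44.0, 45.9 and 44.9 CPM in cells alone, 79.0, 82.8 and 78.7 CPM beside WT fibroblasts and 53.4, 54.3 and 52.8 CPM beside sgPrrx1 fibroblasts in the 168FARN libraries. The 3 groups did not overlap, and sgPrrx1 coculture lay between the others, nearer to cells alone. The log2 fold change of Pdgfa was 0.84 (SE 0.031, adjusted p = 2.24e-09) from alone to WT coculture, a 1.78-fold higher mean. It was 0.25 (SE 0.031, adjusted p = 5.29e-05) from alone to sgPrrx1 coculture and -0.58 (SE 0.030, adjusted p = 6.36e-08) from WT to sgPrrx1 coculture. In LLC1, Pdgfa was at 39.0, 37.0 and 42.4 CPM in cells alone, 37.9, 35.1 and 34.7 CPM beside WT fibroblasts and 37.7, 39.6 and 42.4 CPM beside sgPrrx1 fibroblasts. These groups overlapped, with a log2 fold change of -0.14 (SE 0.094, adjusted p = 0.430) from alone to WT coculture and 0.15 (SE 0.094, adjusted p = 0.537) from WT to sgPrrx1 coculture.

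Pdgfc (chr3:81036416-81214040), a ligand chain secreted in latent form and activated by proteolytic removal of its CUB domain, had the largest called change from alone to WT coculture among the ligands and receptors of the 10 genes in 168FARN. It was at 1.25, 1.17 and 1.34 CPM in cells alone, 5.14, 5.88 and 5.36 CPM beside WT fibroblasts and 2.06, 2.39 and 2.98 CPM beside sgPrrx1 fibroblasts. Its counts ran from 61 to 75 alone, 264 to 403 in WT coculture and 99 to 176 in sgPrrx1 coculture, so the groups stood apart at a low level. The mean was 4.36-fold higher in WT coculture than alone, with a log2 fold change of 2.13 (SE 0.15, adjusted p = 3.62e-07), and the log2 fold change from WT to sgPrrx1 coculture was -1.13 (SE 0.14, adjusted p = 3.47e-05). From alone to sgPrrx1 coculture the log2 fold change was 0.99 (SE 0.16, adjusted p = 3.67e-04). LLC1 cells had Pdgfc at a far higher level from the outset, 67.3, 66.9 and 63.9 CPM in cells alone, 68.4, 70.8 and 71.0 CPM beside WT fibroblasts and 72.2, 73.9 and 48.8 CPM beside sgPrrx1 fibroblasts. Its highest and lowest LLC1 values both lay in sgPrrx1 coculture, the lowest in replicate 3. No LLC1 change of Pdgfc passed the test, with 0.085 (SE 0.15, adjusted p = 0.804) from alone to WT coculture and -0.024 (SE 0.15, adjusted p = 0.935) from alone to sgPrrx1 coculture. Without sgPrrx1 replicate 3 the latter turned to 0.15 (adjusted p = 0.0364).

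The receptors differed in 168FARN against cells alone, where Pdgfra rose in both cocultures and Pdgfrb fell in sgPrrx1 coculture, while both were lower in sgPrrx1 than in WT coculture. Pdgfra (chr5:75151322-75198206), which encodes PDGFRα, the receptor for both ligands above, was at 69.0, 69.9 and 69.0 CPM in cells alone, 133, 132 and 129 CPM beside WT fibroblasts and 98.6, 97.2 and 96.7 CPM beside sgPrrx1 fibroblasts. The replicates lay close together and the 3 groups did not overlap. Its mean was 1.90-fold higher in WT coculture than alone, a log2 fold change of 0.92 (SE 0.025, adjusted p = 2.27e-10). The rise was smaller with sgPrrx1 CAFs, 0.49 (SE 0.025, adjusted p = 5.04e-08) against cells alone, and the difference from WT to sgPrrx1 coculture was -0.43 (SE 0.025, adjusted p = 1.28e-07). LLC1 alone had a similar Pdgfra level: the values were 83.6, 83.3 and 68.0 CPM in cells alone, 68.4, 73.4 and 66.2 CPM beside WT fibroblasts and 81.4, 81.4 and 43.6 CPM beside sgPrrx1 fibroblasts. Cells alone and in sgPrrx1 coculture overlapped with WT coculture, and sgPrrx1 replicate 3 was the lowest library. The log2 fold changes in LLC1 were -0.18 (SE 0.22, adjusted p = 0.711) from alone to WT coculture and -0.011 (SE 0.22, adjusted p = 0.985) from WT to sgPrrx1 coculture. The latter was 0.23 (adjusted p = 0.128) without that library.

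Pdgfrb, which encodes PDGFRβ, is the receptor that marks pericytes as well as fibroblasts. In 168FARN it was at 41.7, 43.4 and 44.0 CPM in cells alone, 42.1, 39.9 and 39.9 CPM beside WT fibroblasts and 27.7, 26.8 and 25.6 CPM beside sgPrrx1 fibroblasts. Cells alone and WT coculture overlapped, and all 3 sgPrrx1 libraries lay below both. The log2 fold change was -0.083 (SE 0.037, adjusted p = 0.0739) from alone to WT coculture, -0.69 (SE 0.038, adjusted p = 9.92e-08) from alone to sgPrrx1 coculture and -0.61 (SE 0.038, adjusted p = 2.27e-07) from WT to sgPrrx1 coculture. The first of these had an adjusted p of 0.0364 without WT replicate 1 and 0.0419 without replicate 1 of cells alone. LLC1 expressed Pdgfrb at a lower level, 5.54, 5.53 and 5.70 CPM in cells alone, 2.81, 2.04 and 2.30 CPM beside WT fibroblasts and 3.05, 3.03 and 2.94 CPM beside sgPrrx1 fibroblasts. Both cocultures lay below every library of cells alone, in contrast to 168FARN, where only sgPrrx1 coculture did. Pdgfrb fell from alone to WT coculture, by a log2 fold change of -1.23 (SE 0.14, adjusted p = 0.00310), and from alone to sgPrrx1 coculture, with -0.89 (SE 0.14, adjusted p = 0.0152). Of the 17 alternatives to the second of these LLC1 tests, 6 gave an adjusted p above 0.05, the highest being 0.0832. WT and sgPrrx1 coculture of LLC1 did not overlap, but their difference of 0.34 (SE 0.14, adjusted p = 0.387) did not pass.

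The other genes of the PDGF pathway, a list of 21 ligands, receptors, processing enzymes, binding proteins and signalling proteins, were tested in the same fits. From alone to WT coculture in 168FARN, 16 of 20 tested passed, 13 higher and 3 lower, beside 33.4% and 30.7% of all genes, with a median log2 fold change of 0.28 beside 0.0061 over all genes. From WT to sgPrrx1 coculture, 14 passed, 3 higher and 11 lower (26.9% and 33.1% of all genes), with a median of -0.14 beside -0.028, and from alone to sgPrrx1 coculture 14 passed, 10 higher and 4 lower (25.7% and 24.1% of all genes), with a median of 0.061 beside 0.0046. In LLC1, 2 of 19 tested passed from alone to WT coculture, 1 higher and 1 lower, where 4.25% and 4.58% of all genes did. From alone to sgPrrx1 coculture 1 passed, as higher, where 2.01% of all genes did. The LLC1 medians were -0.020 and -0.078, beside -0.016 and -0.0062 over all genes. From WT to sgPrrx1 coculture in LLC1 none passed by edgeR, where 0% of all genes passed as higher and 0.0544% as lower, and 4 of 19 had an unadjusted p under 0.05, as did 12% of all genes. DESeq2 called 2 and limma voom with sample weights called 9, beside 3.89% and 36.4% of all genes. The median was -0.050 beside 0.020. Without LLC1 sgPrrx1 replicate 3 the LLC1 counts were 8, 5 and 3 of 20 tested, in the order alone to WT, alone to sgPrrx1 and WT to sgPrrx1, where 44.2%, 26.7% and 5.69% of all genes passed in either direction. The response differed between the lines for 6 of 20 tested from alone to WT coculture and for 5 from WT to sgPrrx1 coculture, beside 29.4% and 19.3% of all genes. Without that library it differed for 13 and 12, beside 52.5% and 44.6% of all genes.

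Among the proteases that can activate latent PDGF chains, Plau, the urokinase gene, rose in both lines with WT fibroblasts. It went from 33.1 ± 0.197 CPM (SD, n = 3) alone to 128 ± 1.66 CPM beside WT CAFs and 92.9 ± 1.35 CPM beside sgPrrx1 CAFs in 168FARN, with a log2 fold change of 1.94 (SE 0.026, adjusted p = 1.06e-12) for WT coculture and -0.46 (SE 0.025, adjusted p = 8.89e-08) between the cocultures. In LLC1 it went from 82.1 ± 2.02 CPM alone to 133 ± 2.95 CPM and 108 ± 4.42 CPM, with 0.70 (SE 0.077, adjusted p = 0.00289) for WT coculture and 0.40 (SE 0.077, adjusted p = 0.0300) for sgPrrx1 coculture. With the replicate number as a block, 0 of the 19 pathway genes passed from alone to sgPrrx1 coculture in LLC1, Plau included. Plat, the tissue plasminogen activator that cleaves PDGF-C, rose by a log2 fold change of 0.85 (SE 0.064, adjusted p = 6.42e-07) in 168FARN WT coculture and was lower in sgPrrx1 than in WT coculture, at -1.16 (SE 0.065, adjusted p = 1.05e-07) on the log2 scale. In LLC1 Plat was at 63.7 ± 0.726 CPM without fibroblasts and 66.9 ± 2.61 CPM in WT coculture, and did not pass the test. Furin, which processes PDGF-A, was at 125 ± 2.78 CPM in 168FARN alone and 127 ± 5.45 CPM in WT coculture, with 0.027 (SE 0.035, adjusted p = 0.520), and was lower in sgPrrx1 coculture, with -0.19 (SE 0.035, adjusted p = 7.53e-04) against WT.

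Pdgfb, the ligand of PDGFRβ, was close to the detection limit in 168FARN, with 7 to 11 counts alone, 39 to 42 in WT coculture and 31 to 34 in sgPrrx1 coculture, a log2 fold change of 1.84 (SE 0.36, adjusted p = 9.83e-04) for WT coculture. Pdgfrl, a receptor-like gene without a kinase domain, rose from 0.387 ± 0.116 CPM to 3.41 ± 0.202 CPM in 168FARN WT coculture, 3.14 (SE 0.23, adjusted p = 5.34e-07), and was at 0.264 ± 0.0858 CPM in sgPrrx1 coculture, -3.71 (SE 0.25, adjusted p = 3.38e-07) against WT. Its sgPrrx1 libraries overlapped those of cells alone. In LLC1 Pdgfrl had 0 counts alone and 8 to 14 in WT coculture and was not tested, and Pdgfd had at most 8 counts in any library of either line and was not tested. Lrp1, a large endocytic receptor that associates with PDGFRβ, moved in opposite directions in the lines: it rose by 0.30 (SE 0.028, adjusted p = 3.63e-06) in 168FARN WT coculture and fell in LLC1 WT coculture, with -0.60 (SE 0.13, adjusted p = 0.0254). The matricellular protein gene Sparc, whose product binds PDGF chains, was at 334 ± 147 CPM without CAFs and 447 ± 156 CPM in WT coculture of 168FARN, a difference within its wide spread, with 0.42 (SE 0.35, adjusted p = 0.309). Of the 13 signalling genes, Pik3r1, a regulatory subunit of PI3-kinase, was the only one with a change of at least 1 on the log2 scale past the threshold. It was lower in 168FARN WT coculture, 27.0 ± 1.83 CPM against 54.1 ± 0.381 CPM alone, with -1.01 (SE 0.052, adjusted p = 3.17e-08).

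**Figure D2:**
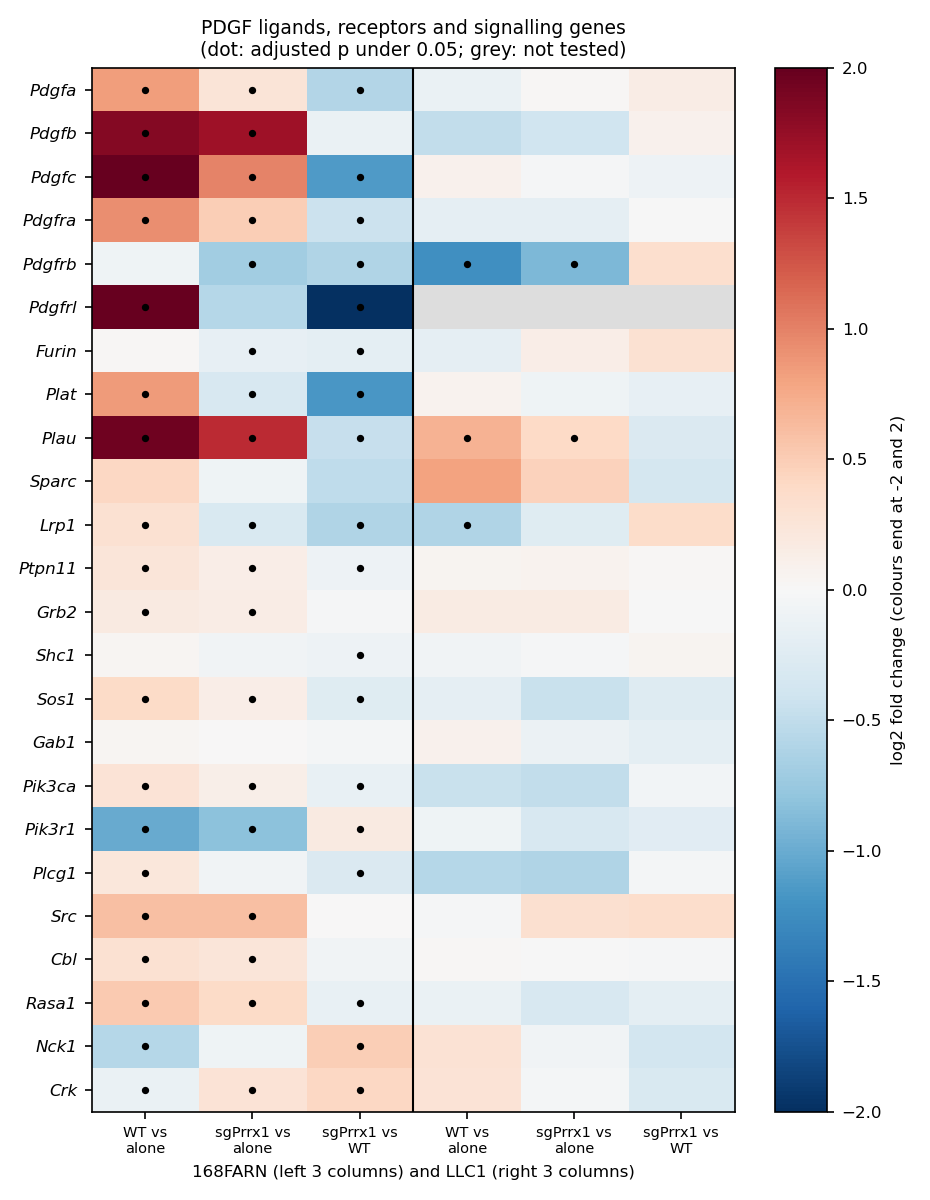
Log2 fold change (colour, scale ends at -2 and 2) of PDGF ligands, receptors, processing genes and signalling genes, in 3 comparisons for 168FARN (left) and LLC1 (right); black dots mark an adjusted p under 0.05 by edgeR and grey cells were not tested. Dots fill most of the 168FARN columns, where 16 of the 20 tested genes of the list passed from alone to WT coculture beside 33.4% (higher) and 30.7% (lower) of all genes, and few of the LLC1 columns, where 2 of 19 passed beside 4.25% and 4.58%.

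Thy1 (chr9:44043384-44048579), the glycosylphosphatidylinositol-anchored CD90 antigen, was detected in 168FARN only in WT coculture. Its counts were 0, 0 and 0 in cells alone, 29, 34 and 27 beside WT CAFs and 0, 0 and 0 beside sgPrrx1 CAFs. The WT level was 0.485 ± 0.0686 CPM (SD, n = 3), at least 8.56-fold higher than alone and at least 8.91-fold higher than in sgPrrx1 coculture, taking 3 counts in each library as the limit that 0 counts allow. The adjusted p was 2.29e-04 for WT coculture against cells alone and 2.51e-04 for sgPrrx1 against WT coculture; Thy1 entered the test only through its WT libraries, so it had to differ there. In LLC1 Thy1 had 3, 0 and 0 counts alone, 4, 6 and 0 in WT coculture and 0 in every sgPrrx1 library, too few to test.

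Fap (chr2:62500936-62575509), a surface serine protease and one of the most used CAF markers, was not detected above a handful of counts. In 168FARN it had 2, 0 and 0 counts alone and 0 in all 6 coculture libraries, and in LLC1 it had 0, 4 and 0 alone, 4, 0 and 0 in WT coculture and 0 in sgPrrx1 coculture. With 3 counts equal to 0.0426 to 0.0626 CPM in the 168FARN libraries and 0.0283 to 0.0514 CPM in those of LLC1, a lower level could not be seen at this depth. Such limits cover counting error only.

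Dpt (chr1:164796663-164824274), dermatopontin, a matrix protein of dermal fibroblasts, was near 0 in 168FARN and expressed in LLC1. In 168FARN it had 5, 3 and 0 counts alone, 66, 52 and 34 in WT coculture and 0, 8 and 18 in sgPrrx1 coculture. WT coculture lay above all other libraries, with log2 fold changes of 3.95 (SE 0.80, adjusted p = 0.00123) against cells alone and -2.37 (SE 0.66, adjusted p = 0.00926) for sgPrrx1 against WT coculture, though DESeq2 gave the second an adjusted p of 0.0585. Like Thy1, it entered the 168FARN test only through the WT libraries. In LLC1 Dpt was at 10.1, 10.5 and 12.4 CPM in cells alone, 13.7, 13.3 and 14.6 CPM beside WT fibroblasts and 25.0, 26.0 and 40.0 CPM beside sgPrrx1 fibroblasts. Every sgPrrx1 library lay above every other, and replicate 3 was the highest. The log2 fold change was 1.46 (SE 0.19, adjusted p = 0.00916) from alone to sgPrrx1 coculture, and 1.22 (adjusted p = 1.57e-04) without replicate 3. From WT to sgPrrx1 coculture it was 1.13 (SE 0.19, adjusted p = 0.112), which did not pass, and 0.87 (adjusted p = 0.00679) without that library, and from alone to WT coculture 0.34 (SE 0.19, adjusted p = 0.317), or 0.35 (adjusted p = 0.0126) without it. With all libraries DESeq2 called the change from WT to sgPrrx1 coculture, 1.11 (adjusted p = 6.96e-06), as did limma voom with sample weights, 0.89 (adjusted p = 2.25e-05). These called 3.89% and 36.4% of all genes. The rise in sgPrrx1 coculture against cells alone had an adjusted p of 0.0882 when only these groups were fitted, and of 0.0599 and 0.0655 without replicate 1 or 2 of cells alone.

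Pdpn (chr4:143267409-143299564), podoplanin, which marks CAFs and lymphatic endothelium, was abundant in 168FARN and scarce in LLC1. The 168FARN libraries had 1012, 997 and 1021 CPM in cells alone, 974, 978 and 1071 CPM beside WT fibroblasts and 1411, 1407 and 1416 CPM beside sgPrrx1 fibroblasts. Cells alone and WT coculture overlapped, -0.0041 (SE 0.031, adjusted p = 0.916), and sgPrrx1 coculture lay above both, with 0.49 (SE 0.031, adjusted p = 2.48e-07) against WT. Without WT replicate 3 the first difference was -0.054, with an adjusted p of 0.00818. In LLC1 Pdpn was at 0.599, 0.651 and 0.783 CPM in cells alone, 5.96, 4.41 and 5.69 CPM beside WT fibroblasts and 0.905, 1.55 and 0.925 CPM beside sgPrrx1 fibroblasts, and the WT libraries stood clear of all others. The mean was 7.90-fold higher in WT coculture than alone, a log2 fold change of 2.98 (SE 0.26, adjusted p = 0.00118), and that from WT to sgPrrx1 coculture was -2.24 (SE 0.25, adjusted p = 0.0376). This last call was lost in 10 of 17 alternatives, with an adjusted p of up to 0.243, while its direction held in all 17, and with a replicate block it was -2.26 (adjusted p = 0.166). Without sgPrrx1 replicate 3 it was -2.14 (adjusted p = 0.00794). From alone to sgPrrx1 coculture the log2 fold change was 0.74 (SE 0.25, adjusted p = 0.137), or 0.85 (adjusted p = 0.0426) without that library.

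Cd34 (chr1:194938821-194961292), found on blood progenitors, endothelium and a class of tissue fibroblasts, showed the widest gap in level between the lines among the members in cells alone. In 168FARN it was at 1024, 1021 and 1027 CPM in cells alone, 738, 749 and 757 CPM beside WT fibroblasts and 821, 803 and 806 CPM beside sgPrrx1 fibroblasts. It was highest in cells alone, and the groups did not overlap. Cd34 fell in WT coculture, with -0.45 (SE 0.017, adjusted p = 2.31e-09), and in sgPrrx1 coculture, with -0.34 (SE 0.017, adjusted p = 3.89e-08), and was slightly higher in sgPrrx1 than in WT coculture, 0.11 (SE 0.017, adjusted p = 1.26e-04). LLC1 libraries held 18 to 30 Cd34 counts alone, 55 to 72 in WT coculture and 41 to 50 in sgPrrx1 coculture, or 0.225, 0.368 and 0.346 CPM in cells alone, 0.894, 0.914 and 0.740 CPM beside WT fibroblasts and 0.471, 0.482 and 0.770 CPM beside sgPrrx1 fibroblasts. There WT coculture lay above cells alone, with 1.43 (SE 0.30, adjusted p = 0.0235), but 6 of 17 alternatives gave an adjusted p above 0.05, the lowest of these 0.0693, each of them leaving out a library of cells alone or of WT coculture.

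S100a4 (chr3:90603770-90606045) fell in 168FARN coculture, while its LLC1 values were higher in coculture without passing the test. In 168FARN it was at 1047, 1169 and 1059.8 CPM in cells alone, 441, 460.1 and 413 CPM beside WT fibroblasts and 846, 884 and 845 CPM beside sgPrrx1 fibroblasts. WT coculture was lowest and sgPrrx1 coculture lay between, with no overlap. The log2 fold change was -1.32 (SE 0.047, adjusted p = 1.76e-09) from alone to WT coculture, so that the mean alone was 2.49-fold higher, -0.35 (SE 0.046, adjusted p = 9.71e-05) from alone to sgPrrx1 coculture and 0.97 (SE 0.046, adjusted p = 3.47e-08) from WT to sgPrrx1 coculture. In LLC1 it was at 551, 544 and 653 CPM in cells alone, 817, 752 and 899 CPM beside WT fibroblasts and 695, 699 and 1169.5 CPM beside sgPrrx1 fibroblasts. Every coculture library lay above every library of cells alone, but neither difference passed, 0.50 (SE 0.21, adjusted p = 0.185) for WT and 0.55 (SE 0.21, adjusted p = 0.158) for sgPrrx1 coculture. Without sgPrrx1 replicate 3, the highest library, they were 0.51 (adjusted p = 0.00230) and 0.26 (adjusted p = 0.0808).

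The members are counted here against the share of all genes that passed, which was large in 168FARN. From alone to WT coculture in 168FARN, 7 of the 10 passed, 5 higher (Pdgfra, Pdgfa, Pdgfc, Thy1 and Dpt) and 2 lower (S100a4 and Cd34), with 9 tested; over all genes tested, 33.4% passed as higher and 30.7% as lower. From alone to sgPrrx1 coculture, 7 passed, 4 higher (Pdgfra, Pdgfa, Pdgfc and Pdpn) and 3 lower (Pdgfrb, S100a4 and Cd34), beside 25.7% and 24.1% of all genes. From WT to sgPrrx1 coculture, all 9 tested passed, 3 higher (Pdpn, S100a4 and Cd34) and 6 lower, beside 26.9% and 33.1% of all genes. The WT libraries entered both the first and the last of these comparisons, so their values are not independent. Thy1 and Dpt met the count filter only through the WT libraries and had to differ there. Of the other 7 tested members, 5 passed from alone to WT coculture, 3 higher and 2 lower, and all 7 passed from WT to sgPrrx1 coculture, 3 higher and 4 lower. The median log2 fold change of these 7 was -0.0041 from alone to WT coculture, 0.25 from alone to sgPrrx1 coculture and -0.43 from WT to sgPrrx1 coculture, beside 0.0061, 0.0046 and -0.028 over all genes.

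In LLC1 3 of the 10 passed from alone to WT coculture, 2 higher (Pdpn and Cd34) and 1 lower (Pdgfrb), with 8 tested and 4.25% and 4.58% of all genes passing as higher and lower. From alone to sgPrrx1 coculture 2 passed, Dpt as higher and Pdgfrb as lower, beside 2.01% and 2.31% of all genes. From WT to sgPrrx1 coculture only Pdpn passed, as lower, beside 0% of all genes as higher and 0.0544%, or 7 genes, as lower by edgeR. At an unadjusted p under 0.05 these last figures were 908 and 637 genes, DESeq2 called 255 and 246, and limma voom with sample weights called 2340 and 2341. The medians of the 8 tested members were 0.21, 0.28 and 0.021 in the order of the comparisons, beside -0.016, -0.0062 and 0.020 over all genes. With the replicate number as a block, 185 genes passed as higher and 196 as lower from alone to sgPrrx1 coculture, against 259 and 297 without it, and the 2 members still passed. Without sgPrrx1 replicate 3, 5, 4 and 2 of the 8 members passed in the order of the comparisons above, but far more of all genes did too, 44.2%, 26.7% and 5.69% in either direction.

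**Figure D3:**
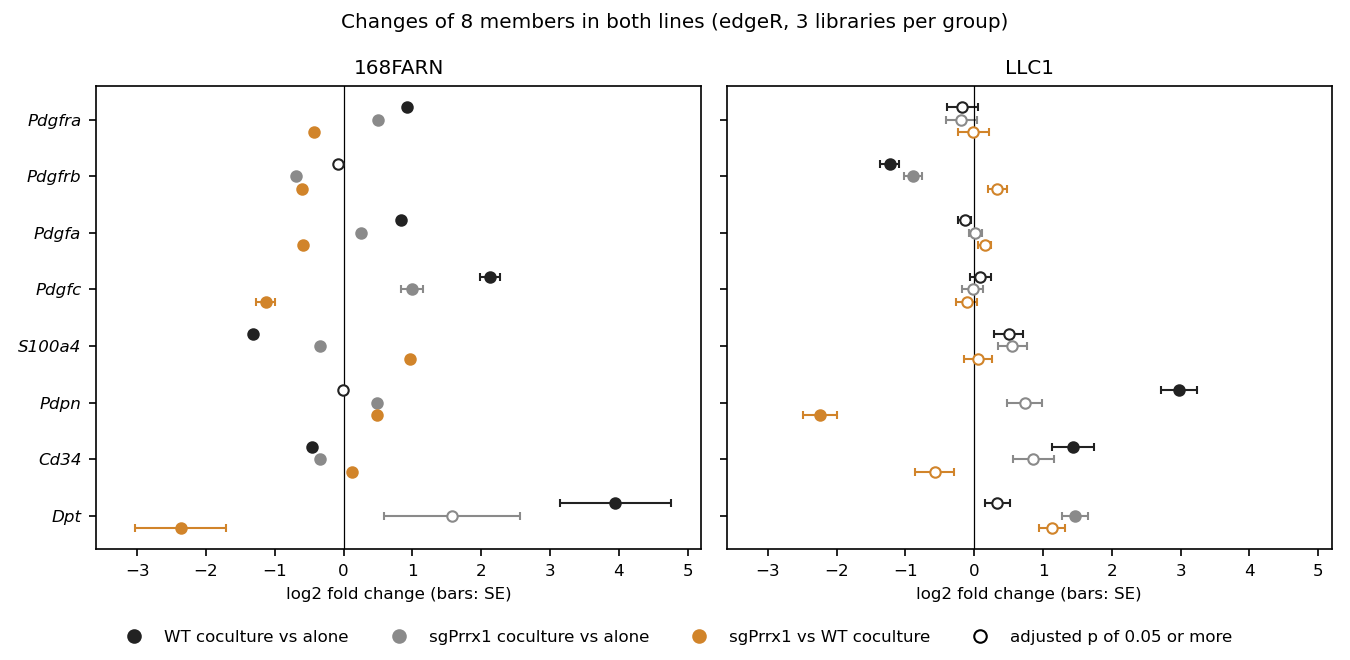
Log2 fold change with its SE for the 8 members tested in both lines, in 168FARN (left) and LLC1 (right); filled points have an adjusted p under 0.05 by edgeR and open points do not, and colours mark the 3 comparisons. In 168FARN Pdgfc reaches 2.13 and S100a4 -1.32 from alone to WT coculture; in LLC1 the filled points are those of Pdpn, Cd34, Pdgfrb and Dpt.

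The difference between the lines was itself tested as an interaction term over all 18 libraries, where line, fibroblast type and count table go together and cannot be told apart. That fit gave each gene a spread shared by both lines. Fitted apart, the common coefficient of variation between replicates estimated by edgeR was 0.0728 in 168FARN and 0.228 in LLC1. The SEs of Pdpn and Cd34 below are smaller than those of their LLC1 changes above. The p-values of these differences may therefore understate the spread in LLC1. For the change from alone to WT coculture, 8 of the 9 tested members differed between the lines, beside 29.4% of the 14344 genes tested. The response of Pdpn was lower in 168FARN than in LLC1, with a log2 difference, 168FARN minus LLC1, of -2.99 (SE 0.24, adjusted p = 3.14e-07), as were that of Cd34, -1.89 (SE 0.21, adjusted p = 9.67e-06), and that of S100a4, -1.82 (SE 0.21, adjusted p = 1.30e-05). The responses of Dpt (3.63), Pdgfc (2.04), Pdgfrb (1.14), Pdgfra (1.09) and Pdgfa (0.97) were higher in 168FARN. That of Thy1 did not pass by edgeR, with an adjusted p of 0.103. It did by limma voom with sample weights, 4.73 (adjusted p = 5.09e-04), where 60.6% of all genes passed. For the change from WT to sgPrrx1 coculture, 7 of the 9 differed, beside 19.3% of all genes. Pdpn, S100a4 and Cd34 had log2 differences of 2.74, 0.94 and 0.73, and Dpt, Pdgfc, Pdgfrb and Pdgfa of -3.47, -1.01, -0.93 and -0.72. The call of Cd34, with an adjusted p of 0.0195, was lost in 4 of 25 alternatives, with adjusted p-values up to 0.0550, each without replicate 1 or 2 of LLC1 WT coculture or of LLC1 sgPrrx1 coculture. Pdgfra did not pass, -0.41 (SE 0.25, adjusted p = 0.290), but did without LLC1 sgPrrx1 replicate 3, -0.63 with an adjusted p of 2.82e-05, where 44.6% of all genes passed. Thy1 had 0 counts in both sgPrrx1 groups, and its difference did not pass by edgeR, which fitted no usable error for it. Adjusted p-values over its alternatives ran from 0.0447, by limma voom with sample weights, to 1.

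Markers of fibroblasts outside the 10 genes moved in the same libraries, and their part in the results was not tested. In 168FARN, of a list of 18 such markers, Fbln1, Fstl1, Postn and Tagln were at or under 3 counts in every library of cells alone. The summed level of the 18 was 932 to 938 CPM alone, 2036 to 2108 CPM beside WT CAFs and 853 to 857 CPM in sgPrrx1 coculture, and 16 of 17 tested passed as higher from alone to WT coculture and 16 as lower from WT to sgPrrx1 coculture, beside 33.4% and 33.1% of all genes. Postn and Tagln entered only through the WT libraries, and without them the counts were 14 of 15 in both. From alone to sgPrrx1 coculture 13 of the 17 passed, 11 higher and 2 lower, beside 25.7% and 24.1% of all genes. Postn, a matrix protein of activated fibroblasts, went from 0 counts to 22.1 ± 0.891 CPM (SD, n = 3) and then to 4 counts in a single sgPrrx1 library. Col1a1, the main collagen chain of fibroblasts, was at 3.74 ± 0.360 CPM in cells alone, 161 ± 11.5 CPM beside WT fibroblasts and 10.4 ± 0.207 CPM beside sgPrrx1 fibroblasts. Dcn, decorin, was at 0.275 ± 0.0769 CPM, 92.8 ± 3.14 CPM and 43.3 ± 1.27 CPM in the same order, so that it lay far above its level alone in the sgPrrx1 libraries, in which Thy1 had 0 counts. The list did not move as 1 block: Pcolce, an enhancer of procollagen processing, was at 519 ± 5.96 CPM, 476 ± 9.59 CPM and 354 ± 5.33 CPM, and Ddr2, a collagen receptor kinase, at 229 ± 3.93 CPM, 251 ± 5.11 CPM and 180.1 ± 2.14 CPM, again in the same order.

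In LLC1 the same list was led by genes that the cells express alone, with a sum of 2501 to 2594 CPM alone, 2025 to 2078 CPM beside WT fibroblasts and 2482 to 2761 CPM in sgPrrx1 coculture. Of 14 tested, 5 passed as higher and 2 as lower from alone to WT coculture, beside 4.25% and 4.58% of all genes. Lox entered only through the WT libraries, and without it 4 of 13 passed as higher. In sgPrrx1 coculture against cells alone 3 of the 14 passed, all higher (Col1a2, Dcn and Fbln2), beside 2.01% of all genes, and from WT to sgPrrx1 coculture 3 passed, all lower (Col1a1, Col1a2 and Fbln2), beside 0.0544%. The genes that fell from alone to WT coculture were Col3a1, a fibrillar collagen chain, with -0.55 (SE 0.074, adjusted p = 0.00549), and Fbln1, with -0.43 (SE 0.095, adjusted p = 0.0283). Col1a1 was at 0.375 ± 0.141 CPM in cells alone, 8.60 ± 1.77 CPM beside WT fibroblasts and 0.681 ± 0.147 CPM beside sgPrrx1 fibroblasts, and Fbln2 at 0.0331 ± 0.0374 CPM, 6.08 ± 0.849 CPM and 0.655 ± 0.0121 CPM. The lymphatic markers Lyve1 and Prox1 were at or under 3 counts in every LLC1 library. Of the 5 endothelial markers, whose sum was 0.0250 to 0.103 CPM alone, 5.57 to 6.67 CPM beside WT fibroblasts and 0.103 to 0.352 CPM in sgPrrx1 coculture of LLC1, the sum in WT coculture was almost all Kdr, while Pecam1, Cdh5 and Tek reached at most 0.146 CPM in a library there and Emcn was at 0. In 168FARN the endothelial sum was 0.535 to 0.658 CPM, 5.71 to 6.74 CPM and 4.08 to 4.64 CPM in the same order, mostly Cdh5 in the cocultures, and Emcn was again at 0.

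Of the remaining lists, the 6 mural markers, genes of pericytes and smooth muscle, summed to 0.247 to 0.670 CPM, 1.88 to 2.13 CPM and 0.401 to 0.938 CPM in 168FARN alone, WT and sgPrrx1 coculture, and to 26.1 to 30.5 CPM, 19.7 to 23.4 CPM and 18.7 to 23.0 CPM in LLC1, where the sum was Mcam and Notch3. The 5 leukocyte markers were represented by Cd68, with Ptprc, Adgre1 and Cd3e at or under 3 counts in every library of both lines, and summed in the same order to 23.0 to 24.3 CPM, 13.7 to 16.7 CPM and 13.4 to 14.5 CPM in 168FARN and to 15.7 to 17.0 CPM, 35.9 to 37.7 CPM and 36.0 to 63.6 CPM in LLC1. Most epithelial markers were at or under the detection limit in cells alone. In 168FARN alone, Krt8 was at 331 ± 12.5 CPM (SD, n = 3), while Epcam, Cdh1, Krt19 and Cldn7 were at or under 3 counts. Krt19, a keratin of simple epithelia, had 0, 0 and 0 counts in 168FARN alone, 224, 218 and 143 beside WT CAFs and 0, 0 and 0 beside sgPrrx1 CAFs. Like Thy1 it entered the test only through the WT libraries, where it passed with an adjusted p of 1.87e-06 against cells alone and 2.45e-06 against sgPrrx1 coculture. In LLC1 the 6 epithelial markers summed to at most 0.237 CPM alone and 0.702 CPM in any coculture library.

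**Figure D4:**
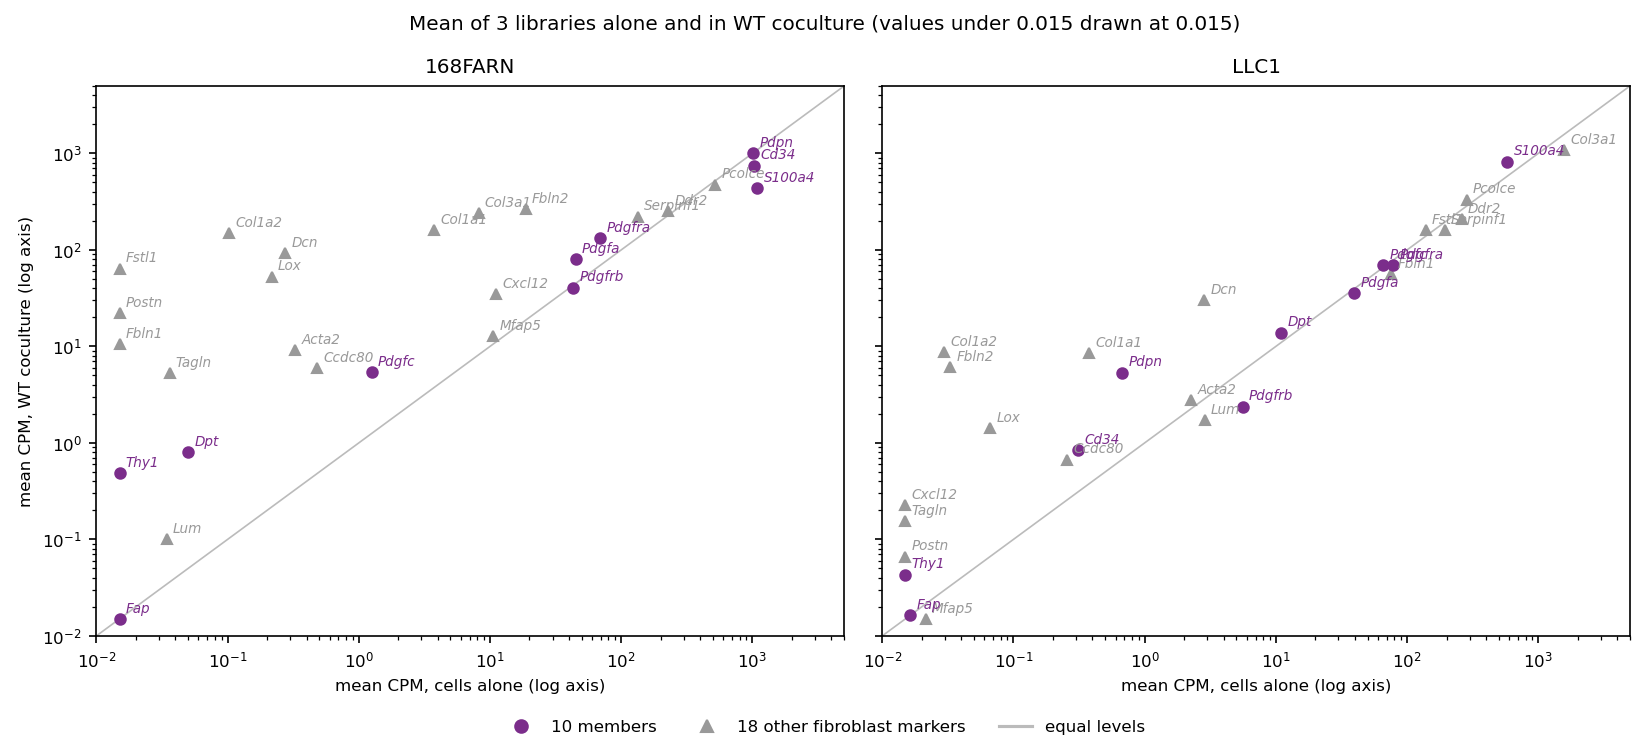
Mean CPM of 3 libraries in cells alone (horizontal, log axis) against WT coculture (vertical, log axis) for the 10 members (circles) and 18 other fibroblast markers (triangles) in each line; points on the diagonal are equal in both, and means under 0.015 CPM are drawn at 0.015. In 168FARN S100a4, Pdpn and Cd34 lie at the upper end, on the diagonal (Pdpn) or below it, at 1092, 1010.2 and 1024 CPM alone, while Postn, Col1a1 and Dcn lie far above it.

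The genes whose pattern over the 9 libraries of a line was most like that of a member were found by the root mean square difference of centred log2 CPM, as a description. The libraries share depth and scaling, and no test was made. For Pdgfra in 168FARN they were Zeb2, Nt5dc2 and Tns3 (0.0303, 0.0350 and 0.0366), and in LLC1 Prkca, Mia3 and Psme4 (0.0240, 0.0334 and 0.0336). For Pdgfrb they were F3, Magef1 and Pxdn (0.0357, 0.0538 and 0.0625) in 168FARN and Rnf157, Pim2 and Acss2 (0.148, 0.151 and 0.154) in LLC1. For Thy1 in 168FARN they were Crabp1, Acta2 and Akap12 (0.382, 0.493 and 0.540). Acta2, the smooth muscle actin of myofibroblasts, was at 0.328 ± 0.0628 CPM in cells alone, 9.18 ± 0.700 CPM beside WT fibroblasts and 0.281 ± 0.0817 CPM beside sgPrrx1 fibroblasts of 168FARN.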

How the data were processed

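Read counts were analysed for 18 libraries of sorted mouse cancer cells. Per the study's methods and the labels, the authors trimmed the reads with Trimmomatic, used STAR for alignment to mm10, samtools for sorting and HTSeq for counting, and deposited raw read counts per gene symbol, 1 table for each line. The methods name ComBat-seq for batch correction after describing human data, without saying whether it was applied to these tables. The strand setting and the handling of read pairs are not given in the sources used here, so reads of overlapping or antisense genes cannot be separated. All columns were used, and groups came from sample titles. Every title holds the word coculture, and those with neither WT nor SG were read as cells alone.

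Counts were tested in R 4.3.3 with edgeR 4.0.16 (filterByExpr, TMM scaling, quasi-likelihood test, 1 mean per group, 9 libraries per line), with Benjamini-Hochberg adjustment over all genes kept. The SE of a log2 fold change was worked back from that test, as its absolute value divided by the square root of the F statistic. CPM was computed from the deposited counts with TMM-scaled totals, and log2 CPM for likeness of pattern used a prior count of 2 and genes with a mean of at least 100 counts. Interactions were fitted over 14344 genes in both tables, with each gene's spread shared by both lines. A count of 0 was given the limit of 3 counts per library. All 10 members are named with their values, the pathway's ligands, receptors and processing genes likewise, and signalling genes only with a called change of at least 1. Lengths per kilobase are those of the longest protein-coding transcript in GENCODE vM1, since the planned RefSeq transcript lengths were not used here. Gene positions and upstream windows are RefSeq's in GRCm38.p6, counted from 1. Alternatives were DESeq2 1.42.0, limma 3.58.1 voom with sample weights, RLE scaling, library totals, looser and stricter count filters, the replicate number as a block, only the groups compared, and each library left out. By the correlation of deviations from group means, libraries of the same number counted as paired only between cells alone and sgPrrx1 coculture of LLC1 (0.131, 0.249 and 0.419, all above 0.1). Replicate 1 there did not correlate best with its own number. Unless stated, the values printed for that comparison are from the fit without the block. No replicate pair agreed within sampling noise. The members, lists and alternatives were chosen with earlier results of these data known.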

Additional observations from a re-analysis of the deposited data

Results flagged for a closer look

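Tests of the difference between the lines singled out 15 responses. From alone to WT coculture the log2 response in 168FARN minus that in LLC1 was -1.89 for Cd34, -2.99 for Pdpn, -1.82 for S100a4, 0.97 for Pdgfa, 1.09 for Pdgfra, 1.14 for Pdgfrb, 2.04 for Pdgfc and 3.63 for Dpt, with adjusted p-values from 3.14e-07 to 0.00354 by edgeR. For Pdgfrb the positive difference stands for a fall in LLC1, where the response was -1.23, and not for a called change in 168FARN, where it was -0.083. From WT to sgPrrx1 coculture the difference was 0.73 for Cd34, 2.74 for Pdpn, -0.72 for Pdgfa, -0.93 for Pdgfrb, 0.94 for S100a4, -1.01 for Pdgfc and -3.47 for Dpt, with adjusted p-values from 2.11e-06 to 0.0195. The lines also differ in the fibroblasts they were grown with and in the count table, and these cannot be told apart. Each gene's spread was shared by the lines in this fit, so the p-values may understate that of LLC1.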

How the results depend on the processing

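In 168FARN and in the difference between lines, the number of members past the threshold stayed within 1.5 times the reported number under every alternative: 5 to 8 (reported 7) from alone to WT coculture, 7 to 8 (7) from alone to sgPrrx1 coculture, 7 to 9 (9) from WT to sgPrrx1 coculture, and 7 to 9 (8) and 6 to 9 (7) for the interactions. The LLC1 numbers, reported as 3, 2 and 1 for alone to WT, alone to sgPrrx1 and WT to sgPrrx1, moved. They were 6, 6 and 5 by limma voom with sample weights, where 58.6%, 48% and 36.4% of all genes passed, and 5, 0 and 0 with only the groups compared, where 40.7%, 0.215% and 0.0866% did. The last was 2 by DESeq2 (3.89% of all genes), 0 with at least 10 counts in every library and 0 with a replicate block. Leaving out each LLC1 library gave 2 to 5, 0 to 4 and 0 to 2, and the highest of each was without sgPrrx1 replicate 3, where 44.2%, 26.7% and 5.69% of all genes passed. For the second, the libraries whose removal gave 0 were replicates 1 and 2 of cells alone, and those that gave 1 were replicate 3 of cells alone and replicates 1 and 2 of sgPrrx1 coculture. For the last, removing any library of cells alone or of WT coculture, or sgPrrx1 replicate 1, gave 0.

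Correlations of deviations between libraries of the same number ran from -0.0734 to 0.0627 in 168FARN, where 0 of 9 pairs exceeded 0.1, and from -0.0414 to 0.419 in LLC1, where 6 of 9 did. Only between cells alone and sgPrrx1 coculture of LLC1 did all 3 pairs exceed 0.1, and there 2 members passed with and without the block. The other group pairs did not meet this condition, and their block is an alternative only. Libraries correlated best with their own number in 3 of 9 pairs in 168FARN and 5 of 9 in LLC1. With the block, the number of all genes called changed by less than 1.5 times from alone to WT coculture in LLC1, 479 higher and 549 lower against 547 and 590, and went from 259 and 297 to 185 and 196 between the paired groups. Directions changed, with a value past the threshold, in 4 cases, all in LLC1: by voom, Pdgfc from alone to sgPrrx1 coculture was 0.12, Pdgfra from WT to sgPrrx1 coculture 0.24 and S100a4 -0.23. The leave-out range of the first ran from -0.13 to 0.15, the latter without sgPrrx1 replicate 3. Of 1305 gene values under alternatives, 1248 kept their call and direction or were never past the threshold. The cause of these changes was not tested. Alternatives for the pathway list, chosen after seeing the data, gave 1 to 11, 0 to 10 and 0 to 9 genes in LLC1, where 2, 1 and 0 are reported, and 5 to 14 and 3 to 13 for the interactions, where 6 and 5 are reported. The highest of each was by voom, which called 58.6%, 48% and 36.4% of all genes in LLC1 and 60.6% and 54.9% for the interactions. Thy1, Fap and Dpt in 168FARN, and Cd34, Thy1 and Fap in LLC1, rest on few counts.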

Other observations

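Among the PDGF pathway genes, Sparc, Cbl and Pik3r1 varied widely between replicates in some groups. Sparc had a coefficient of variation of 44.2% in 168FARN alone, where the median over 8101 genes with a mean of at least 1000 counts was 2.65% and 18 genes varied more. It was 34.8% in 168FARN WT coculture and 33.4% in sgPrrx1 coculture, where 38 genes varied more in each case, and 35.0% in LLC1 WT coculture, but 7.66% in LLC1 alone, where the median was 5.95% over 8591 genes. In LLC1, Cbl, a ubiquitin ligase that sends activated receptors to degradation, had 2225, 2592 and 763 counts alone and 3587, 2831 and 128 in sgPrrx1 coculture, and Pik3r1 had 7004, 7603 and 2150 and 8290, 6874 and 426. In both genes replicate 3 was the low library of cells alone and of sgPrrx1 coculture. In LLC1 WT coculture the coefficient of variation was 36.8% for Cbl and 2.51% for Pik3r1. These genes were chosen after their values were seen, and the cause was not tested.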
